A study of Canis lupus with 24 samples.

Results

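The G1/S and DNA replication genes are a set of 44 genes whose products start S phase, license and fire replication origins, copy DNA and supply nucleotides and histones to the new strands. A gene was taken as measured where the platform annotation gave an array feature its symbol and no other, and the feature brightest on average stood for the gene where there were several. In this way 42 of the 44 were measured, out of 16295 genes in all. FEN1 and POLD1 carried no such feature and were not analysed here.

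The genes were followed in K9TCC, a canine cell line from a transitional cell carcinoma of the bladder, with 24 microarrays (Affymetrix Canine Gene 1.1 ST) that formed 8 groups of 3. Cells grew either as spheres, in serum-free medium with EGF and basic FGF on ultralow attachment plates, or as adherent cells in medium with fetal bovine serum. Within each culture form, 1 group received 50 µM mavacoxib, a COX-2 inhibitor licensed for dogs, for 24 h, against DMSO, its vehicle, for 24 h. A further group was transfected with a COX-2 siRNA for 48 h, against a negative control siRNA for 48 h, with Lipofectamine RNAiMAX as reagent. Spheres are called cancer stem cell spheres by the labels and were passaged repeatedly before treatment. K9TCC is a single line, and whether the 3 replicates came from separate cultures is not stated. The p-values here therefore reflect only how far replicate arrays differed, which could be technical. The labels describe the plating before transfection in the same words for spheres and adherent cells, and whether transfected spheres were attached at that time is not settled by them.

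In G1, cyclin E with its kinase frees E2F transcription factors, which switch on much of the replication machinery. The origin recognition complex, CDC6 and CDT1 load the ring of MCM2 to MCM7 onto DNA, which licenses an origin, and CDC45 and the GINS complex later turn that ring into the active helicase. Primase and polymerases alpha, delta and epsilon then copy the strands, while the clamp PCNA, placed by the RFC loader, holds the polymerases on DNA. Transcripts of this set are high in dividing cells and low in resting ones.

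All values are deposited log2 signals, so a difference of 1 is a factor of 2 in signal, and they are compared only within a gene. Array medians over all features lay between 4.68 and 5.02, and the median of all values was 4.82. Over the genes tested, array medians lay between 6.09 and 6.48 and differed within some groups. They were 6.39, 6.09 and 6.12 in spheres labelled COX-2 siRNA, and 6.46, 6.48 and 6.17 in DMSO spheres. Every member but CLSPN had group means above 4.82 in all 8 groups; CLSPN lay under it in the sphere mavacoxib and sphere DMSO groups, so its differences against those groups may be understated. PTGS2, the gene of COX-2 and target of the siRNA, read 11.32, 11.51 and 11.59 in spheres labelled COX-2 siRNA, against 10.30, 10.29 and 10.35 in negative siRNA spheres, a difference of 1.16 ± 0.13 (SE, adjusted p = 2.57e-07). In adherent cells its difference was 0.33 ± 0.13 (adjusted p = 0.0888). The target was thus higher, not lower, in the spheres labelled COX-2 siRNA, so the arrays are called by their label in all that follows. PTGS2 also differed between the controls: with negative siRNA it was lower than with DMSO by 1.80 in spheres (adjusted p = 2.98e-10) and higher by 1.39 in adherent cells (adjusted p = 9.07e-07). An exchange of the 2 siRNA labels in spheres would turn the sign of every sphere difference between them. It would also put other arrays into each comparison with negative siRNA spheres. The same would hold for adherent cells, and an exchange was not tested in either form. Of 17 measured urothelium markers, 11 to 13 lay above 4.82 in each group, with KRT20 under it in all 8 groups, UPK1A and UPK3A under it in the 4 sphere groups, and KRT5 and TP63 under it in the 4 adherent groups. Of 11 measured leukocyte markers LYZ and CD14 lay above 4.82 in all 8 groups and the others, PTPRC among them, under it. Of 10 fibroblast markers PDGFRA lay above it in all 8 groups, COL3A1 in the 4 sphere groups, COL1A1 in the sphere groups other than negative siRNA, and THY1 in mavacoxib and DMSO spheres, while DCN, LUM and the other 4 lay under it throughout. Of 10 endothelium and muscle markers VWF lay above it in mavacoxib and DMSO spheres and the others, PECAM1 among them, in no group.

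The level of the whole set spanned a wider range over the sphere groups than over the adherent groups. The median signal of the 42 members was 7.995 to 8.16 over the 3 arrays of spheres labelled COX-2 siRNA, 9.07 to 9.18 in negative siRNA spheres, 7.78 to 8.01 in mavacoxib spheres and 7.40 to 7.57 in DMSO spheres. In adherent cells it was 8.61 to 8.78 with the labelled COX-2 siRNA, 8.90 to 8.98 with negative siRNA, 7.93 to 8.02 with mavacoxib and 8.40 to 8.51 with DMSO. In adherent cells no 2 groups overlapped in this median, and in spheres the labelled COX-2 siRNA and mavacoxib groups overlapped at one array each while the other groups were apart. Of the 42 members, 30 had their highest group mean in negative siRNA spheres and 28 their lowest in DMSO spheres. A further 8 were highest in negative siRNA adherent cells, 3 in adherent cells labelled COX-2 siRNA, and GINS3 in mavacoxib spheres. The highest and lowest groups were not counted over all genes, so these counts are not read as particular to the set. In bulk RNA of this kind, fewer cells in S phase and less of a transcript per cell cannot be told apart.

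**Figure D1:**
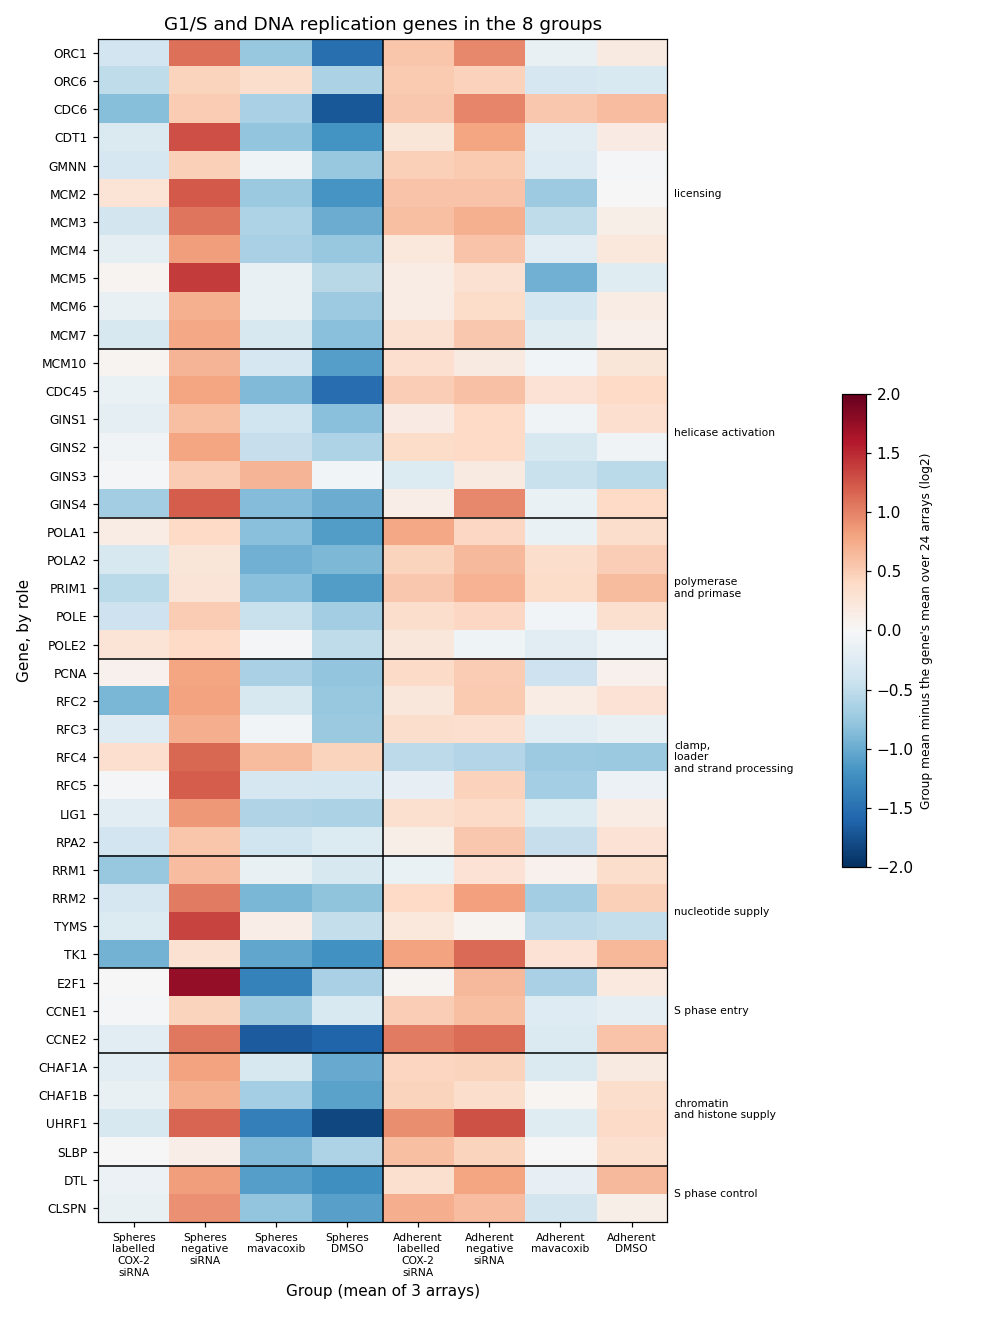
Heat map of the 42 measured members (rows, ordered by role) in the 8 groups (columns); colour gives the group mean minus the mean of the member over all 24 arrays, in log2 units. Negative siRNA spheres are highest for 30 members and DMSO spheres lowest for 28. The same was not counted over all genes.

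The 2 controls were set against each other first, because the treatments are read against them. In spheres, all 42 members were higher with negative siRNA than with DMSO, with a median difference of 1.58, against 0.04 over all 16295 genes. Among all genes, 19.0% were higher and 16.4% lower at adjusted p under 0.05, the threshold used for every call here. UHRF1, which reads hemimethylated DNA behind the fork, read 9.15, 9.34 and 9.60 with negative siRNA, against 6.36, 6.28 and 6.52 with DMSO, and differed by 2.98 ± 0.15 (adjusted p = 8.52e-13). The S phase cyclin CCNE2 read 8.20, 8.06 and 7.97 with negative siRNA, against 5.54, 5.35 and 5.38 with DMSO, and differed by 2.65 ± 0.15 (adjusted p = 7.8e-12). Both genes were higher on every negative siRNA array, without overlap, and the same was true of ORC1, the largest subunit of the origin recognition complex, at 2.60 ± 0.14, and of CDT1, which loads the MCM ring, at 2.48 ± 0.15. The smallest rise was that of GINS3, at 0.56 ± 0.16 (adjusted p = 0.00801), followed by the loader subunit RFC4 at 0.70 ± 0.16 and the histone mRNA binding protein SLBP at 0.74 ± 0.12.

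In adherent cells part of the set was higher with negative siRNA; the difference from spheres was not tested. There 19 members were higher with negative siRNA than with DMSO, 0 were lower and 23 did not pass, while 8.74% of all genes were higher and 5.11% lower. The median difference of the members was 0.39, against 0.07 for all genes. Licensing genes made up 9 of the 19, and all 3 S phase entry genes rose, though the calls of E2F1 and CCNE2 ended without single arrays: that of E2F1 without DMSO replicate 2 or negative siRNA replicate 3 (highest adjusted p = 0.0629), that of CCNE2 without DMSO replicate 1 or 2 or negative siRNA replicate 2 (0.0725). CCNE1 read 7.84, 8.11 and 7.74 with negative siRNA, against 7.04, 7.17 and 7.12 with DMSO, a rise of 0.79 ± 0.12 (adjusted p = 0.000213). UHRF1 rose by 0.88 ± 0.15, ORC1 by 0.78 ± 0.14 and ORC6 by 0.76 ± 0.18. None of the 5 polymerase and primase genes passed, and the largest of their differences was 0.15 ± 0.12, for POLA2. The 2 controls differ in agent, transfection and time (48 h against 24 h) together, and these cannot be told apart. Markers on all 4 lists of cell types also differed between the sphere controls. Among all genes there, 19.0% were higher with negative siRNA and 16.4% lower. The counts of markers higher with it, and the endothelium and muscle count, were near or under these shares. With negative siRNA 1 of 17 urothelium markers was higher and 8 were lower, 1 of 10 fibroblast markers was higher and 4 were lower, 1 of 11 leukocyte markers was higher and 3 were lower, and 2 of 10 endothelium and muscle markers were lower. KRT13 was lower by 2.91, LYZ by 2.29, THY1 by 2.04, PDGFRA by 1.87, CD14 by 1.04 and VWF by 0.86. Sums of linear signals weigh the brightest markers most. In DMSO spheres these were PDGFRA (mean 9.56) for fibroblast, and LYZ (9.41) and CD14 (8.56) for leukocyte, so those sums mostly follow these genes. Summed signals on the linear scale were 13291 to 14855 with negative siRNA and 17511 to 18721 with DMSO for urothelium, 361 to 379 with negative siRNA and 961 to 1094 with DMSO for fibroblast, 373 to 422 with negative siRNA and 988 to 1271 with DMSO for leukocyte, and 114 to 128 with negative siRNA and 131 to 158 with DMSO for endothelium and muscle markers. In adherent cells 2 urothelium markers and PDGFRA were lower with negative siRNA and no other marker passed. Their part in the members' differences between the controls was not tested.

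Spheres were set against adherent cells within each control, and the difference between the 2 results was not tested. Between spheres and adherent cells under DMSO, 36 members were lower in spheres, 2 were higher and 4 did not pass, with a median of -1.04, against -0.03 for all genes. Among all genes, 22.8% were higher and 23.3% lower in spheres. CDC6, the ATPase that helps to load MCM rings, read 7.37, 7.38 and 6.93 in spheres, against 9.45, 9.53 and 9.60 in adherent cells, and was lower by 2.30 ± 0.13 (adjusted p = 6.03e-13). UHRF1 differed by -2.20 ± 0.15, CCNE2 by -2.18 ± 0.15 and the helicase factor CDC45 by -1.92 ± 0.15. All arrays of the 2 forms were apart for these 4 genes, with spheres below. All 5 polymerase and primase genes were lower, among them PRIM1, the catalytic subunit of primase, at -1.74 ± 0.13, and POLA1, the catalytic subunit of polymerase alpha, at -1.47 ± 0.10. RFC4 went the other way: it read 8.60, 8.77 and 8.51 in spheres, against 7.43, 7.41 and 7.46 in adherent cells, a rise of 1.19 ± 0.16 (adjusted p = 1.49e-06). GINS3 was the other member higher in spheres, at 0.49 ± 0.16 (adjusted p = 0.0156). Without adherent DMSO replicate 1 the GINS3 difference was 0.42 (adjusted p = 0.0671), without sphere DMSO replicate 2 it was 0.40 (adjusted p = 0.0787), and with every array shifted to one median it was 0.30 (adjusted p = 0.144). The 4 members that did not pass were ORC6, MCM5, CCNE1 and the thymidylate synthase gene TYMS.

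Markers differed between the culture forms as well. Among all genes, 22.8% were higher and 23.3% lower in spheres under DMSO, and 20.5% higher and 22.1% lower under negative siRNA. Only the urothelium markers lower under both controls exceeded these shares clearly. The fibroblast markers higher under DMSO, 4 of 10, lay above the share, but the list is too short to call that a clear excess. The other counts were near or under the shares. Nothing is read about the lists from the fibroblast count or from these others. Under DMSO 4 of 17 urothelium markers were higher in spheres and 10 lower, with KRT5 at 8.42 and UPK3A at -7.50. In spheres 4 of 10 fibroblast markers were higher, with COL3A1 at 2.82 and THY1 at 2.15, 3 of 11 leukocyte markers, with LYZ at 3.79 and CD14 at 2.78, and 2 of 10 endothelium and muscle markers, with VWF at 1.48; 0 markers of these 3 lists were lower. Summed linear signals were 17511 to 18721 in spheres and 24031 to 25302 in adherent cells for urothelium, 961 to 1094 in spheres and 805 to 921 in adherent cells for fibroblast, 988 to 1271 in spheres and 168 to 182 in adherent cells for leukocyte, and 131 to 158 in spheres and 97.5 to 102 in adherent cells for endothelium and muscle markers. Under negative siRNA 4 urothelium markers were higher in spheres and 12 lower, 2 fibroblast markers were higher and 1 lower, 2 leukocyte markers were higher and 1 lower, and 2 endothelium and muscle markers were higher. Summed linear signals there were 13291 to 14855 in spheres and 24037 to 24200 in adherent cells for urothelium, 361 to 379 in spheres and 643 to 661 in adherent cells for fibroblast, 373 to 422 in spheres and 173 to 206 in adherent cells for leukocyte, and 114 to 128 in spheres and 114 to 130 in adherent cells for endothelium and muscle markers. Their part in the members' differences between the forms was not tested.

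Under negative siRNA, 16 members were higher in spheres, 5 were lower and 21 did not pass, with 20.5% of all genes higher and 22.1% lower. The median of the members was 0.27, against -0.06 for all genes. With every array shifted to one median the split was 8 higher to 5 lower, and after quantile normalization it was 23 to 4. RFC4 read 9.47, 9.63 and 8.88 in spheres, against 7.62, 7.74 and 7.43 in adherent cells, and rose by 1.73 ± 0.16 (adjusted p = 5.88e-09). TYMS read 8.31, 8.39 and 8.48 in spheres, against 7.23, 7.25 and 6.80 in adherent cells, and rose by 1.30 ± 0.21 (adjusted p = 2.57e-05). The sphere arrays of both genes lay above all adherent arrays. A second, dimmer TYMS feature averaged 5.91 in spheres and 5.69 in adherent cells, and with the mean of both features the TYMS difference was 0.76. E2F1, the activating E2F factor, was higher by 1.11 ± 0.11 and the MCM ring subunit MCM5 by 1.10 ± 0.13. The 5 lower members were TK1, a thymidine kinase of the salvage pathway, at -0.83 ± 0.13, CDC6 at -0.47 ± 0.13, PRIM1 at -0.44 ± 0.13, POLA2 at -0.41 ± 0.12 and SLBP at -0.31 ± 0.12. The SLBP call ended without any 1 of negative siRNA adherent replicates 1, 2 or 3 or sphere replicates 1 or 2 (highest adjusted p = 0.106). TK1 read 9.40, 9.50 and 9.73 in spheres, against 10.25, 10.47 and 10.39 in adherent cells, so its arrays did not overlap.

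Mavacoxib in adherent cells was followed by lower signals of part of the set. Against DMSO, 16 members fell, 0 rose and 26 did not pass, and the median difference was -0.37, against 0.04 for all genes. Among all genes, 2.61% were higher and 1.50% lower with mavacoxib, so 16 of 42 members lower stood beside a background of 1.50%. RRM2, the small subunit of ribonucleotide reductase, which makes deoxynucleotides, had the largest fall.

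RRM2 read 8.79, 8.72 and 8.74 with mavacoxib, against 10.02, 9.75 and 9.98 with DMSO. All mavacoxib arrays lay below all DMSO arrays, and the difference was -1.17 ± 0.12 (adjusted p = 3.13e-06). CCNE2 read 6.73, 6.89 and 6.59 with mavacoxib, against 7.56, 7.57 and 7.68 with DMSO, and fell by 0.87 ± 0.15 (adjusted p = 0.00119). E2F1 read 7.49, 7.64 and 7.59 with mavacoxib, against 8.52, 8.33 and 8.40 with DMSO, and fell by 0.84 ± 0.11 (adjusted p = 9.16e-05). In both genes, too, the groups did not overlap. DTL, which targets CDT1 for destruction in S phase, read 9.10, 9.02 and 9.18 with mavacoxib, against 9.95, 9.91 and 9.86 with DMSO, and fell by 0.81 ± 0.14 (adjusted p = 0.00185), again with no overlap. Over the 4 marker lists FOXA1, a urothelium marker, and CD14 were lower with mavacoxib in adherent cells and no other marker passed. Among all genes 1.50% were lower there. Summed linear signals were 25593 to 26852 with mavacoxib and 24031 to 25302 with DMSO for urothelium, and 168 to 175 with mavacoxib and 168 to 182 with DMSO for leukocyte markers, and their part was not tested.

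By role, 5 of 11 licensing genes fell, and all 5 were subunits of the MCM ring: MCM2 (-0.72 ± 0.12), MCM3 (-0.63 ± 0.13), MCM4 (-0.44 ± 0.10), MCM5 (-0.71 ± 0.13) and MCM6 (-0.50 ± 0.09). MCM7, the other subunit of the ring, had -0.36 ± 0.11 (adjusted p = 0.0865). The loading factors ORC6 and CDC6 lay near 0, at -0.04 ± 0.18 and -0.07 ± 0.13, with overlapping arrays. Of the helicase genes GINS1 and GINS4 fell. Of the clamp, loader and strand genes PCNA, RFC5 and the single strand binding protein RPA2 fell, the last with -0.75 ± 0.16 (adjusted p = 0.00839). POLA1 was the 1 polymerase gene of 5 to fall, at -0.49 ± 0.10, and UHRF1 the 1 chromatin gene of 4. Calls that ended without 1 array were those of MCM4 (DMSO replicate 1 or 3, mavacoxib replicate 1; highest adjusted p = 0.0963), GINS1 (all but DMSO replicate 3; 0.165), GINS4 (all but mavacoxib replicate 3; 0.156), PCNA (any of the 6; 0.213) and UHRF1 (DMSO or mavacoxib replicate 3; 0.073).

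**Figure D2:**
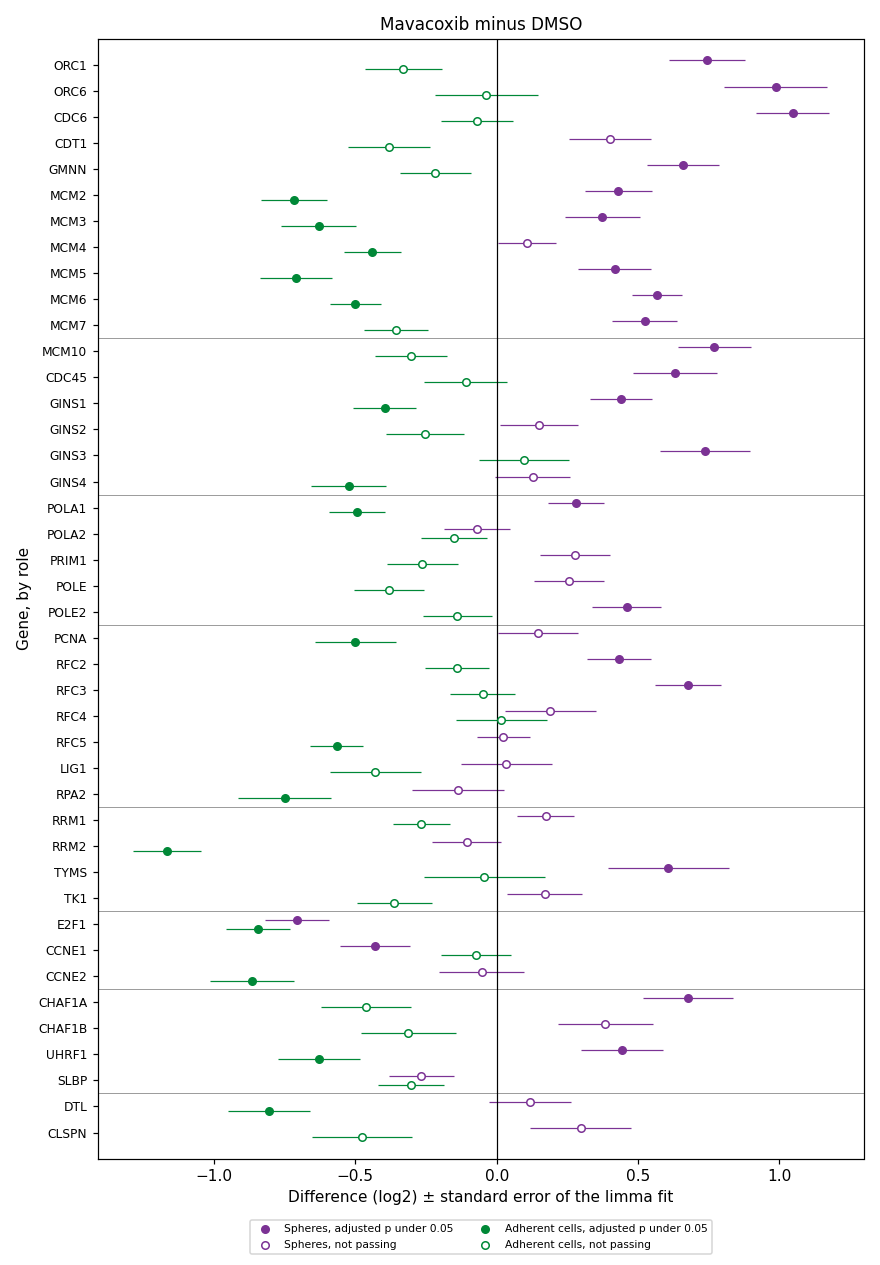
Difference between mavacoxib and DMSO for each of the 42 members (log2 units, with its standard error), in spheres and in adherent cells; filled points passed and open points did not. CDC6 stands at 1.05 in spheres and -0.07 in adherent cells, and RRM2 at -0.11 in spheres and -1.17 in adherent cells.

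In spheres, mavacoxib was followed by higher signals of much of the set. Against DMSO, 20 members rose, 2 fell and 20 did not pass, with a median of 0.34, against -0.01 for all genes. Among all genes, 11.1% were higher and 10.3% lower. Licensing gave 9 of the 20 rises, from 11 measured genes, with a median of 0.523 over the role. Helicase activation gave 4, from 6 measured genes, with a median of 0.535.

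CDC6 read 8.19, 8.46 and 8.17 with mavacoxib, against 7.37, 7.38 and 6.93 with DMSO, and rose by 1.05 ± 0.13 (adjusted p = 3.28e-06). ORC6, a subunit of the origin recognition complex, read 7.71, 7.79 and 7.58 with mavacoxib, against 7.03, 6.85 and 6.24 with DMSO, and rose by 0.99 ± 0.18 (adjusted p = 0.000438). MCM10, which helps to start the helicase, read 8.61, 8.66 and 8.56 with mavacoxib, against 8.12, 7.80 and 7.60 with DMSO, and rose by 0.77 ± 0.13 (adjusted p = 0.00014). Each of the 3 genes had all its mavacoxib arrays above all its DMSO arrays. ORC1 read 5.98, 5.90 and 6.36 with mavacoxib, against 5.41, 5.42 and 5.18 with DMSO, and rose by 0.74 ± 0.14 (adjusted p = 0.000349). GINS3 rose by 0.74 ± 0.16, RFC3 by 0.68 ± 0.12, CHAF1A, a subunit of the chromatin assembly factor, by 0.68 ± 0.16 and the licensing inhibitor GMNN by 0.66 ± 0.13.

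E2F1 and CCNE1 fell in mavacoxib spheres. E2F1 read 6.95, 6.91 and 6.76 with mavacoxib, against 7.64, 7.38 and 7.72 with DMSO, and fell by 0.71 ± 0.11 (adjusted p = 9.57e-05). CCNE1 read 6.69, 6.69 and 6.30 with mavacoxib, against 6.91, 6.91 and 7.15 with DMSO, and fell by 0.43 ± 0.12 (adjusted p = 0.0153). The groups did not overlap in either gene. The CCNE1 difference was -0.35 without sphere DMSO replicate 3 (adjusted p = 0.072) and -0.30 without sphere mavacoxib replicate 3 (adjusted p = 0.112). The third gene of S phase entry, CCNE2, had -0.05 ± 0.15 (adjusted p = 0.868). In a fit on the 6 compared arrays alone, 10 members passed in place of 22. Without DMSO replicate 3, 16 members passed. Of all genes, 1326 were then higher and 1876 lower, in place of 1812 and 1679. With mavacoxib 4 of 17 urothelium markers were lower in spheres, among them TP63 at -0.80, and 0 were higher. Among all genes 10.3% were lower and 11.1% higher there. Of 10 fibroblast markers COL1A1 was higher by 0.90 and PDGFRA lower by 0.74, of 11 leukocyte markers LYZ was lower by 1.72 and CD14 by 2.35, and of 10 endothelium and muscle markers 0 passed. PDGFRA weighs most in the fibroblast sum that follows, and LYZ and CD14 in the leukocyte sum. Summed linear signals were 18560 to 19155 with mavacoxib and 17511 to 18721 with DMSO for urothelium, 665 to 732 with mavacoxib and 961 to 1094 with DMSO for fibroblast, 335 to 377 with mavacoxib and 988 to 1271 with DMSO for leukocyte, and 117 to 138 with mavacoxib and 131 to 158 with DMSO for endothelium and muscle markers. Their part in the members' differences was not tested.

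The 2 responses to mavacoxib were compared directly, as the response of spheres minus that of adherent cells. This difference was positive and past the threshold for 27 members, negative for 0 and not passing for 15, with a median of 0.71, against -0.04 for all genes; 4.49% of all genes passed as higher and 5.82% as lower. All 11 licensing genes were among the 27, though the call of MCM4 ended without adherent mavacoxib replicate 1 (adjusted p = 0.0548) and that of CDT1 without adherent DMSO replicate 3 (adjusted p = 0.054). MCM2 differed by 1.15 ± 0.17 (adjusted p = 8.18e-05); it read 7.57, 7.52 and 7.70 in mavacoxib spheres, against 7.35, 7.27 and 6.88 in DMSO spheres, and 7.53, 7.76 and 7.56 in mavacoxib adherent cells, against 8.31, 8.34 and 8.35 in DMSO adherent cells. The mavacoxib arrays thus lay above the DMSO arrays in spheres and below them in adherent cells. CHAF1A differed by 1.14 ± 0.22, MCM5 by 1.13 ± 0.18 and CDC6 by 1.12 ± 0.18.

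A total of 7 members were called in opposite directions, higher with mavacoxib in spheres and lower with it in adherent cells: MCM2, MCM3, MCM5, MCM6, GINS1, POLA1 and UHRF1. The share of all genes called in opposite directions was not counted, so nothing particular to the set is read from the 7. MCM6 read 8.52, 8.53 and 8.49 in mavacoxib spheres, against 7.93, 8.01 and 7.90 in DMSO spheres, and rose by 0.57 ± 0.09 (adjusted p = 7.42e-05). It read 8.34, 8.29 and 8.33 in mavacoxib adherent cells, against 8.82, 8.80 and 8.84 in DMSO adherent cells, and fell by 0.50 ± 0.09 (adjusted p = 0.00164). Its arrays were apart in both forms, and both calls held under every alternative run. The other sphere calls but that of GINS1 ended without 1 sphere array. For MCM2 this was DMSO or mavacoxib replicate 3 (highest adjusted p = 0.0765), for MCM3 DMSO replicate 2 or 3 or mavacoxib replicate 2 (0.324), and for MCM5 DMSO replicate 3 or mavacoxib replicate 1 or 2 (0.099). For POLA1 it was replicate 2 or 3 of either group (0.202), and for UHRF1 DMSO replicate 1 or 2 or mavacoxib replicate 2 or 3 (0.132). The MCM3 arrays of mavacoxib spheres overlapped those of DMSO spheres. The adherent calls of GINS1 and UHRF1 ended without single adherent arrays, as given above.

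E2F1 was the 1 member lower with mavacoxib in both culture forms, by 0.71 in spheres and 0.84 in adherent cells on the log2 scale, and the difference between those responses was 0.14 ± 0.16 (adjusted p = 0.707). A further 8 members fell in adherent cells and did not pass in spheres, RRM2, CCNE2, DTL, RPA2, RFC5, GINS4, PCNA and MCM4. For RRM2 the difference between the responses was 1.06 ± 0.17 (adjusted p = 0.000242), and for RPA2 it did not pass, at 0.61 ± 0.23 (adjusted p = 0.102). The other members without a difference past the threshold included CCNE1 (-0.36 ± 0.18), SLBP (0.04 ± 0.16), POLA2 (0.08 ± 0.17) and RFC4 (0.17 ± 0.23).

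**Figure D3:**
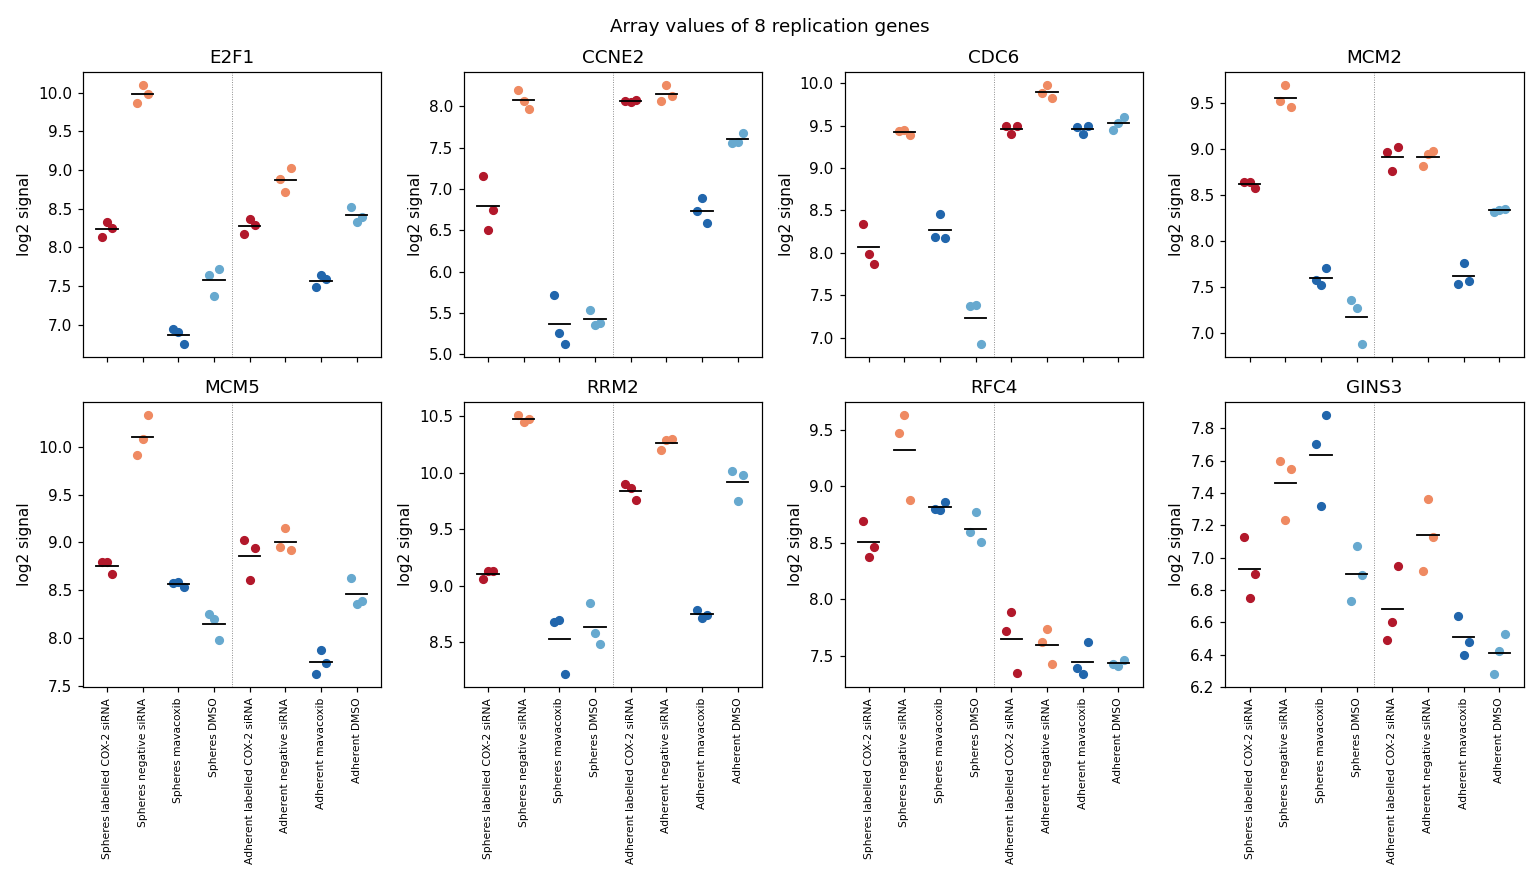
Log2 signal of E2F1, CCNE2, CDC6, MCM2, MCM5, RRM2, RFC4 and GINS3 on each of the 24 arrays, by group, with the group mean; axes do not start at 0. E2F1 lies at 6.76 to 6.95 in mavacoxib spheres, against 7.38 to 7.72 in DMSO spheres, while CDC6 lies at 8.17 to 8.46 in mavacoxib spheres, against 6.93 to 7.38 in DMSO spheres.

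In adherent cells, 11 members changed on the arrays labelled COX-2 siRNA. Against negative siRNA, 10 members were lower, 1 was higher and 31 did not pass, with a median of -0.13, against -0.05 for all genes. The background was 6.42% of genes higher and 8.59% lower. GINS4, a subunit of the GINS complex, read 8.34, 8.37 and 8.29 on the labelled arrays, against 9.20, 9.04 and 9.27 with negative siRNA, and fell by 0.84 ± 0.13 (adjusted p = 0.000139). RFC5, a clamp loader subunit, read 8.43, 8.47 and 8.50 on the labelled arrays, against 9.06, 9.06 and 9.13 with negative siRNA, and fell by 0.62 ± 0.09 (adjusted p = 8.19e-05). E2F1 read 8.17, 8.37 and 8.29 on the labelled arrays, against 8.88, 8.71 and 9.03 with negative siRNA, and fell by 0.60 ± 0.11 (adjusted p = 0.000933). The 3 genes had no overlap between groups, and their calls were the 3 that held under every alternative.

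CDT1 was lower by 0.55 ± 0.15 there, and ORC1, CDC6, MCM4, RRM1, RRM2 and DTL by 0.36 to 0.47 on the log2 scale. The calls of ORC1, CDC6, CDT1, MCM4, RRM2 and DTL each ended without any 1 of several arrays, with adjusted p up to 0.157 for ORC1, 0.0885 for CDC6, 0.0692 for CDT1, 0.0768 for MCM4, 0.0748 for RRM2 and 0.154 for DTL. POLA1 was the 1 member higher. It read 8.74, 8.61 and 8.69 on the labelled arrays, against 8.27, 8.34 and 8.36 with negative siRNA, and rose by 0.36 ± 0.10 (adjusted p = 0.0166), with no overlap. The POLA1 difference was 0.33 without labelled COX-2 siRNA replicate 1 (adjusted p = 0.0694) or without negative siRNA replicate 1 (adjusted p = 0.0619). The count of 11 fell to 7 without labelled COX-2 siRNA replicate 1, negative siRNA replicate 1 or negative siRNA replicate 3, to 6 without negative siRNA replicate 2, and to 6 in a fit on the 6 compared arrays. Of the marker lists, 5 of 17 urothelium markers and MYH11 were lower on the labelled arrays and PDGFRB was higher. Among all genes 8.59% were lower and 6.42% higher there. The summed linear signal of the urothelium markers was 20761 to 21636 on the labelled arrays and 24037 to 24200 with negative siRNA. Their part in the members' differences was not tested.

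In spheres nearly the whole set was lower on the arrays labelled COX-2 siRNA. Against negative siRNA, 40 members were lower, 0 were higher and 2 did not pass, with a median of -0.97, against -0.04 for all genes. Among all genes, 15.8% were higher and 23.3% lower. The lower members covered every role, with all 11 licensing genes, all 6 helicase genes, all 7 clamp, loader and strand genes and all 4 nucleotide genes among them. The call of GINS3 ended without labelled COX-2 siRNA replicate 2 (adjusted p = 0.0608) or negative siRNA replicate 1 (adjusted p = 0.052).

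GINS4 read 7.55, 7.50 and 7.50 on the labelled arrays, against 9.55, 9.36 and 9.32 with negative siRNA, and fell by 1.89 ± 0.13 (adjusted p = 1.94e-10). E2F1 read 8.13, 8.33 and 8.25 on the labelled arrays, against 9.87, 10.10 and 9.98 with negative siRNA, and fell by 1.75 ± 0.11 (adjusted p = 5.43e-11). RFC2, another loader subunit, read 6.85, 6.68 and 6.70 on the labelled arrays, against 8.51, 8.55 and 8.31 with negative siRNA, and fell by 1.71 ± 0.11 (adjusted p = 6.87e-11). In each gene the labelled arrays lay more than 1 log2 unit below every negative siRNA array. TYMS, which makes thymidylate, read 6.39, 7.15 and 6.74 on the labelled arrays, against 8.31, 8.39 and 8.48 with negative siRNA, and fell by 1.63 ± 0.21 (adjusted p = 2.31e-06). Both subunits of ribonucleotide reductase fell, RRM1 with -1.37 ± 0.10 and RRM2 with -1.37 ± 0.12. The MCM ring subunits fell by 0.86 to 1.44 on the log2 scale, MCM3 the most and MCM6 the least.

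The 2 members that did not pass were POLE2, an accessory subunit of polymerase epsilon, and SLBP. POLE2 read 8.85, 8.63 and 8.66 on the labelled arrays, against 8.86, 8.83 and 8.84 with negative siRNA, a difference of -0.13 ± 0.12 (adjusted p = 0.443). SLBP read 9.07, 9.14 and 8.93 on the labelled arrays, against 9.18, 9.10 and 9.23 with negative siRNA, a difference of -0.12 ± 0.12 (adjusted p = 0.44). In both genes the groups overlapped. POLA1 passed at -0.26 ± 0.10 (adjusted p = 0.0435), but its difference was -0.19 without labelled COX-2 siRNA replicate 2 (adjusted p = 0.206), -0.25 without labelled COX-2 siRNA replicate 3 (adjusted p = 0.0967), -0.25 without negative siRNA replicate 2 (adjusted p = 0.093) and -0.22 without negative siRNA replicate 3 (adjusted p = 0.129). The negative siRNA arrays of this comparison are those that stood above DMSO spheres for all 42 members, so the comparisons share them. Of the markers, 3 of 17 for urothelium were higher and 5 lower on the labelled arrays, PDGFRA, PDGFRB and DES were higher and LYZ was lower. These counts were near or under the all-gene shares of 15.8% higher and 23.3% lower, so nothing is read from them about the lists. Summed linear signals were 13992 to 14823 on the labelled arrays and 13291 to 14855 with negative siRNA for urothelium, 457 to 556 on the labelled arrays and 361 to 379 with negative siRNA for fibroblast, 304 to 380 on the labelled arrays and 373 to 422 with negative siRNA for leukocyte, and 132 to 148 on the labelled arrays and 114 to 128 with negative siRNA for endothelium and muscle markers, and their part was not tested. Spheres labelled COX-2 siRNA had a member median of 7.995 to 8.16, between those of negative siRNA spheres (9.07 to 9.18) and DMSO spheres (7.40 to 7.57).

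**Figure D4:**
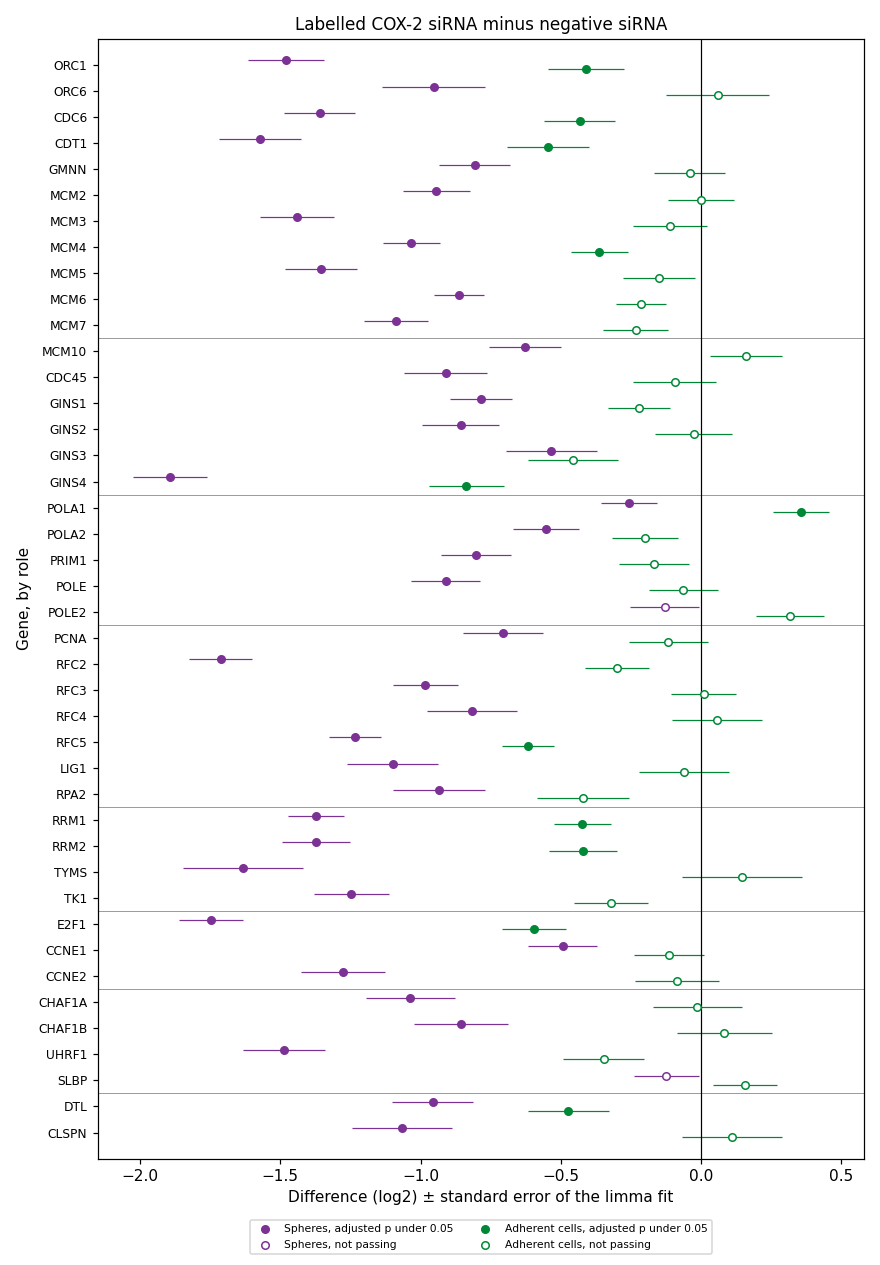
Difference between the arrays labelled COX-2 siRNA and those with negative siRNA for each of the 42 members (log2 units, with its standard error), in spheres and in adherent cells; filled points passed and open points did not. GINS4 stands at -1.89 in spheres and -0.84 in adherent cells, and TYMS at -1.63 in spheres and 0.15 in adherent cells.

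Interferon response genes moved with the labelled COX-2 siRNA in both culture forms. All 13 measured genes of that list were higher, with a median difference of 3.95 in spheres and 4.30 in adherent cells. Of all genes, 15.8% were higher in spheres and 6.42% in adherent cells. With mavacoxib, 8 of the 13 were higher in spheres, beside 11.1% of all genes. In adherent cells 7 were higher and 1 lower with it, beside 2.61% and 1.50%. The list also differed without these agents. Between the sphere controls 5 were higher and 5 lower with negative siRNA, beside 19.0% and 16.4%. Under DMSO 8 were higher and 2 lower in spheres than in adherent cells, beside 22.8% and 23.3%. The part of the interferon response genes in the differences of the replication genes was not tested.

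The response to the labelled siRNA was compared between the culture forms in the same way. The sphere response minus the adherent response was negative and past the threshold for 34 members, positive for 0 and not passing for 8, with a median of -0.90, against -0.02 for all genes; 6.74% of all genes passed as higher and 8.53% as lower. TYMS differed by -1.78 ± 0.30 (adjusted p = 0.000324); its adherent arrays read 7.45, 7.24 and 7.03 with the labelled siRNA, against 7.23, 7.25 and 6.80 with negative siRNA, while it fell in spheres, and with the mean of its 2 features the difference was -1.13. RFC2 differed by -1.41 ± 0.16, MCM3 by -1.33 ± 0.19 and MCM5 by -1.21 ± 0.18. The 8 that did not pass were PCNA, RPA2, DTL, POLE2, CCNE1, POLA2, SLBP and GINS3. Of the 40 members lower in spheres, 10 were also lower in adherent cells, namely ORC1, CDC6, CDT1, MCM4, GINS4, RFC5, RRM1, RRM2, E2F1 and DTL. The share of all genes lower in both forms was not counted, so nothing particular to the set is read from the 10. POLA1 was lower in spheres and higher in adherent cells, and its difference between the responses was -0.61 ± 0.14 (adjusted p = 0.00441).

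Mavacoxib and the labelled siRNA shared no arrays, so their calls in spheres can be set side by side. Of the 20 members higher with mavacoxib, 19 were lower on the arrays labelled COX-2 siRNA, and POLE2 was the other. E2F1 and CCNE1 were lower in both. A further 19 members were lower on the labelled arrays and did not pass with mavacoxib, and SLBP passed in neither. As 40 of all 42 members were lower with the labelled siRNA, nothing particular to these 20 is read from the count.

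**Figure D5:**
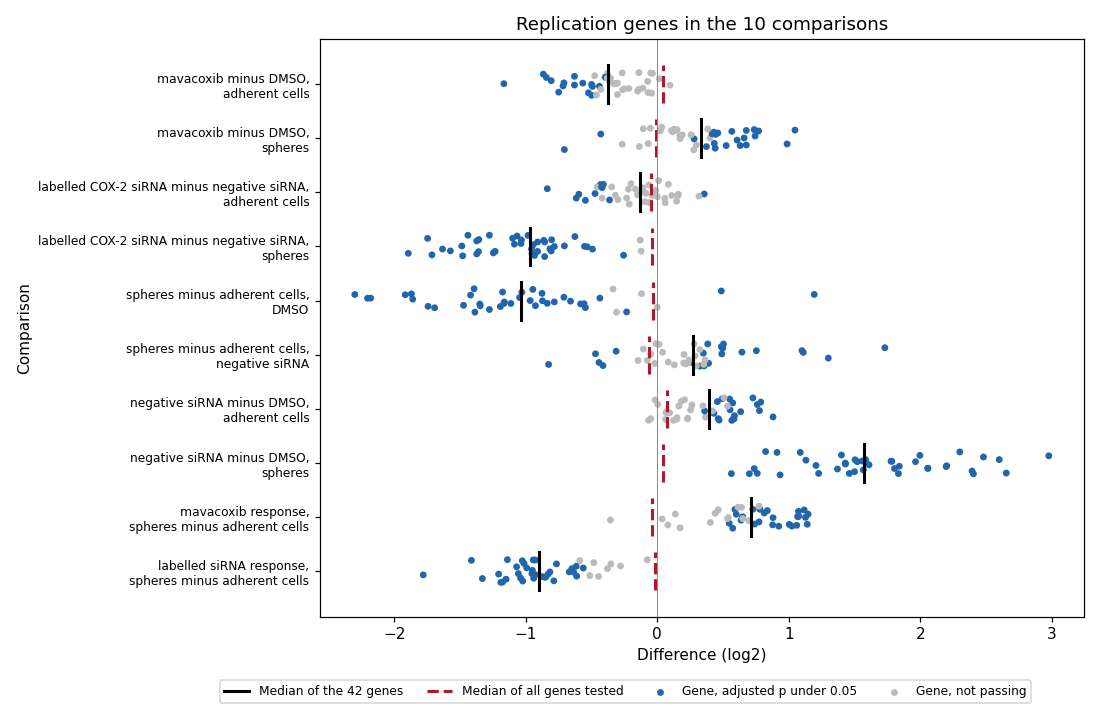
Differences of the 42 members (log2 units) in each of the 10 comparisons, 1 point per member, with the median of the members and that of all genes. The members' median is 1.58 for negative siRNA against DMSO in spheres, against 0.04 for all genes, and -0.97 for the labelled COX-2 siRNA against negative siRNA in spheres, against -0.04 for all genes.

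A few members followed patterns of their own over the 8 groups. RFC4 was higher in spheres than in adherent cells under both controls, and its group means ran from 8.51 to 9.33 in the 4 sphere groups, against 7.43 to 7.65 in the 4 adherent groups. GINS3 had its highest mean in mavacoxib spheres, where it read 7.70, 7.32 and 7.88, and overlapped with negative siRNA spheres, where it read 7.60, 7.23 and 7.55. TYMS was the 1 member with 2 features. Its second feature was dimmer, with a mean of 5.33 over all arrays, against 7.04 for the first. In spheres the second feature averaged 5.17 with the labelled COX-2 siRNA and 5.91 with negative siRNA, a narrower gap than the 6.76 and 8.39 of the first feature. In adherent cells it averaged 5.43 with the labelled siRNA and 5.69 with negative siRNA, where the first gave 7.24 and 7.09, so the 2 features differed in sign there. Differences of the second feature were not tested.

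Other genes of the pathway were counted from lists of related function. The all-gene shares to read them against were 11.1% higher and 10.3% lower for mavacoxib in spheres, and 2.61% higher and 1.50% lower for it in adherent cells. Of 31 measured G1 regulators, 3 rose and 9 fell with mavacoxib in spheres, and 1 rose and 5 fell in adherent cells. The 3 rises in spheres and the 1 in adherent cells were near the all-gene shares, so nothing is read from them about the list. E2F7, an atypical repressor of the E2F family, fell by 0.74 ± 0.11 in spheres and fell by 0.94 ± 0.11 in adherent cells. CDKN1A, the CDK inhibitor p21, rose by 0.90 ± 0.11 in spheres, and CCND2, a D-type cyclin, fell there by 1.17 ± 0.12. E2F8, the other atypical repressor, fell in adherent cells by 0.90 ± 0.11, and its response differed between the forms by 1.34 ± 0.16 (adjusted p = 6.53e-06).

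Of 41 measured genes of further replication machinery, 16 rose and 1 fell with mavacoxib in spheres, and 0 rose and 4 fell in adherent cells. RPA1, the large subunit of the single strand binding complex, rose by 0.81 ± 0.12 in spheres, and DBF4, the activating subunit of the CDC7 kinase, by 0.74 ± 0.14. ASF1B, a histone chaperone, fell by 0.70 ± 0.12 in adherent cells, and HELLS, a chromatin remodeller, by 0.75 ± 0.14. Under the labelled siRNA, 1 rose and 25 fell in spheres, beside 15.8% of all genes higher and 23.3% lower. In adherent cells 4 rose and 2 fell, beside 6.42% higher and 8.59% lower, so those counts were near or under the all-gene shares. SAMHD1, a hydrolase of deoxynucleotides that is also interferon induced, was higher by 2.28 ± 0.18 in spheres and by 2.31 ± 0.18 in adherent cells, while DCK, deoxycytidine kinase, was lower by 1.31 ± 0.11 in spheres.

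Of 21 measured S phase checkpoint and repair genes, 6 rose and 0 fell with mavacoxib in spheres, and 0 rose and 8 fell in adherent cells. EXO1, an exonuclease of mismatch repair, rose by 0.82 ± 0.14 in spheres and fell by 0.72 ± 0.14 in adherent cells. UNG, the uracil DNA glycosylase, fell by 0.99 ± 0.13 in adherent cells. Of 36 measured mitosis genes, 11 rose and 1 fell with mavacoxib in spheres, and 0 rose and 14 fell in adherent cells. NDC80, a kinetochore protein, rose by 0.98 ± 0.13 in spheres, and TTK, a spindle checkpoint kinase, fell by 0.77 ± 0.12 in adherent cells. On the arrays labelled COX-2 siRNA, 34 mitosis genes were lower in spheres and 0 higher, beside 23.3% of all genes lower and 15.8% higher, with CDC20, which activates the anaphase promoting complex, lower by 1.71 ± 0.10.

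Between the controls, all 36 mitosis genes, 32 of the 41 further replication genes and 18 of the 21 checkpoint and repair genes were higher with negative siRNA than with DMSO in spheres, and 0 genes of these lists were lower, beside 19.0% of all genes higher and 16.4% lower. In adherent cells 1 mitosis gene was higher and 5 were lower with negative siRNA, among them NUF2, a kinetochore protein, at -0.69 ± 0.09, where 19 of the 42 members were higher and 0 lower. The all-gene shares there were 8.74% higher and 5.11% lower. Under negative siRNA, 25 mitosis genes were higher in spheres than in adherent cells and 0 lower, beside 20.5% of all genes higher and 22.1% lower. Under DMSO 0 were higher and 34 lower, beside 22.8% of all genes higher and 23.3% lower.

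The 42 members lay on 26 chromosomes in the gene table of assembly mCanLup2.hap1 (Canis lupus baileyi), which served for names and order. No pair of members lay within 5 protein-coding genes of each other, so neighbouring position was not shared among them.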

How the data were processed

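RNA of 24 samples was hybridised to Affymetrix Canine Gene 1.1 ST arrays. The deposited values are log2 signals, 1 per feature and array, made with Affymetrix Expression Console 1.1 per the submitters' processing notes; how signals were summarised and normalized is not given in the sources used here. Of 27766 features, 16878 carried 1 symbol, 289 several and 10599 none. The brightest feature of each gene was kept, with no filter on intensity.

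With R 4.3.3 and its package limma 3.58.1, 1 mean for each of the 8 groups was fitted over the 24 arrays by lmFit, followed by contrasts.fit and eBayes (residual df 16, prior df 5.54). Tests were two-sided, with Benjamini-Hochberg adjustment over 16295 genes in each of 10 comparisons. Errors of differences are standard errors. The procedure was tested on simulated data. Members and lists were chosen with earlier results of these data known.

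Members shown array by array were, in each comparison, up to 4 a direction with the largest difference among those called whose arrays did not overlap, and those against the majority; of other lists, up to 4 genes a comparison with the smallest adjusted p. The number of arrays limits the precision. Equal replicate numbers were not treated as pairs: of 24 such pairs, 8 had deviations correlated above 0.1 (r from -0.171 to 0.266). Arrays of unequal number were not correlated for reference, so whether the numbers pair samples is not settled. Alternatives were quantile normalization, one array median, leaving out dim genes, other feature choices, only the compared arrays, trend and robust variance, array weights, replicate blocks and leaving out each array. No sequences are shown.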

Additional observations from a re-analysis of the deposited data

Results flagged for a closer look

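The responses of the members to the same agent differed between spheres and adherent cells by the test of the difference itself. For mavacoxib, the sphere response minus the adherent response passed as positive for 27 members and as negative for 0, with MCM2 at 1.15, CHAF1A at 1.14, MCM5 at 1.13 and CDC6 at 1.12. For the labelled COX-2 siRNA it passed as positive for 0 members and as negative for 34, with TYMS at -1.78, RFC2 at -1.41, MCM3 at -1.33 and MCM5 at -1.21. The TYMS value comes from the brighter of its 2 features and was -1.13 with the mean of both; the second feature averaged 5.17 with the labelled siRNA and 5.91 with negative siRNA in spheres, and 5.43 with the labelled siRNA and 5.69 with negative siRNA in adherent cells. With 3 arrays in each group, single arrays were not tested for standing apart. DMSO sphere replicate 3 had a median over all genes of 6.17, against 6.46 and 6.48 for replicates 1 and 2. The members' median deviation from their own means over all arrays was -1.01 on it, against -0.67 and -0.79.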

How the results depend on the processing

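The count of members called moved by over 1.5 times under these settings: with array weights to 25 from 16 for mavacoxib in adherent cells; with only the compared arrays to 10 from 22 for mavacoxib in spheres and to 6 from 11 for the labelled siRNA in adherent cells; and with every array shifted to one median to 13 from 21 for spheres against adherent cells under negative siRNA. Without single arrays the labelled siRNA count in adherent cells ran from 6 to 10. The cause was not tested. With the replicate block, the counts were 14 and 20 for mavacoxib in adherent cells and spheres, and 12 and 39 for the labelled siRNA. For single members, 320 results, each 1 member in 1 comparison, passed in the main fit or in some alternative. Each was rerun under every alternative that applied to it. Of these reruns, 4870 kept the call, 230 lost it, 150 gained it and 0 reversed it. A difference past the threshold in neither setting counts as kept. Fewer calls of the main fit held under every alternative. For mavacoxib these were 11 of 16 in adherent cells and 10 of 22 in spheres. For the labelled siRNA they were 3 of 11 in adherent cells and 38 of 40 in spheres. Between culture forms they were 35 of 38 under DMSO and 12 of 21 under negative siRNA. Between controls they were 13 of 19 in adherent cells and 42 of 42 in spheres. All-gene counts moved too: for mavacoxib in adherent cells 671 genes became 2472 with array weights and 344 without DMSO replicate 1. Shifting arrays to one median moved the median of all genes to -0.15 for the labelled siRNA in spheres, and to -0.22 and -0.20 for spheres against adherent cells under DMSO and negative siRNA, with 33.6% and 34.1% of calls higher in place of 49.5% and 48.1%.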
